A study of Caenorhabditis elegans with 6 samples.

Results

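The genes described here are 10 G protein alpha subunit genes of Caenorhabditis elegans that are best known from sensory neurons, namely odr-3, gpa-1, gpa-2, gpa-3, gpa-5, gpa-6, gpa-9, gpa-11, gpa-13 and gpa-15. They were taken by symbol from a deposited table of 41862 features, all 10 were present, and all 10 passed the minimum mean of 10 normalized counts used for testing. RNA came from neuronal nuclei that were immunoprecipitated from larvae synchronised at the L1 stage, the stage at which the animal hatches. The 3 control libraries came from strain OH16748, which is wild type apart from the UPN::INTACT transgene otIs790, a transgene for tagging nuclei so that they can be pulled down. The 3 mutant libraries came from strain OH17055, which carries UPN INTACT too and is described as null for 6 CUT homeobox genes, ceh-48, ceh-44, ceh-41, ceh-39, ceh-38 and ceh-21. In the text below, mutant means a library with that label. The labels do not state the transgene's promoter or whether replicates came from separate cultures, so p-values measure only the spread between these libraries.

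A heterotrimeric G protein relays the signal of a receptor in the cell membrane. When a receptor is activated, the alpha subunit exchanges GDP for GTP and separates from the beta and gamma subunits, and the parts then act on enzymes and channels. C. elegans has broadly expressed alpha subunits that resemble the mammalian Go, Gq and Gs proteins, and a larger group, found mostly in the head (amphid) and tail (phasmid) sensory neurons, where chemoreceptors for odours, tastes, noxious chemicals and pheromones signal through them. In many of these neurons the signal reaches a cyclic GMP-gated channel or a TRPV channel in the cilium.

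Recovered depth was 15500882 to 20844986 reads per library. The labels were checked on the 6 genes labelled null. Of these ceh-21 ranged from 832 to 1098 normalized counts in controls and from 0 to 47.95 in mutants, and ceh-39 from 769 to 877 and from 2.53 to 43.9. Of the 6 deleted genes 5 were lower past the threshold and ceh-44 was higher, so a null label does not mean absent RNA at each locus. The mean log2 value of 40 ciliary genes, which are expressed in sensory neurons, was 10.37 to 10.58 in controls and 9.94 to 9.99 in mutants. Since 18 of them were called lower, this value does not measure sensory neuron content apart from their own expression. The preparations also held muscle RNA, since 8 of 8 muscle markers were tested, with a mean log2 value of 12.63 to 12.96 in controls and 12.53 to 12.84 in mutants.

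Most of the sensory G alpha set was lower in the mutants, and no gene of it was called higher, though the mean of gpa-9 was higher (262 normalized counts in controls, 308 in mutants). Of the 10 genes 6 fell past a limma Benjamini-Hochberg adjusted p of 0.05 (odr-3, gpa-1, gpa-3, gpa-6, gpa-11 and gpa-15), where 10.5% of all 17900 tested genes were called lower and 7.56% higher. The 4 others, gpa-2, gpa-5, gpa-9 and gpa-13, did not pass. In the counts below, fell and rose mean called lower and higher past this threshold. The median log2 difference of the 10 genes, mutant minus control on log2(normalized count + 1), was −0.95, beside −0.02 over all tested genes. Groups did not overlap, with each mutant library below each control, for 8 of the 10 genes, beside 20.4% of all tested genes, and for 0 of them did each mutant library lie above, beside 19.5%. Fewer cells of a type and less RNA per cell cannot be told apart in these bulk preparations.

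**Figure D1:**
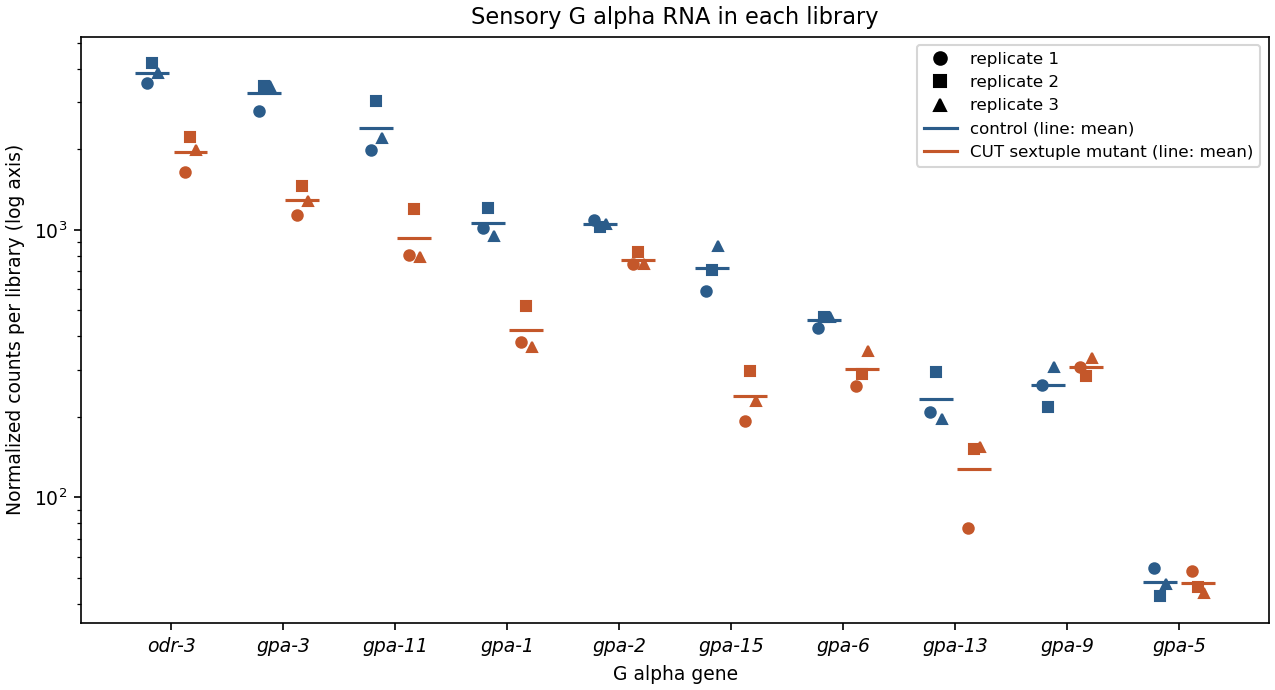
Normalized counts (vertical, log axis) of the 10 G alpha genes (horizontal, by control level per kb of exon) in 3 control and 3 mutant libraries, each point a library and each line a group mean. For 8 genes the mutant points lie below the control points, while for gpa-9 and gpa-5 they overlap.

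The gene odr-3 encodes the main olfactory alpha subunit of the worm, required for attraction to odours sensed by the AWA and AWC neurons and for avoidance through ASH. It stood at 3539, 4183 and 3861 normalized counts in control replicates 1, 2 and 3 and at 1638, 2211 and 1991 in mutant replicates 1, 2 and 3. Every mutant library was below every control, and the mutant mean was 50.4% of the control mean. The means were 3861 ± 322 and 1947 ± 289 (SD, n = 3 per group), which gave a log2 difference of −0.995 with an SE of 0.17 and a Benjamini-Hochberg adjusted limma p of 0.00459.

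Of the pair tied genetically to dauer entry, gpa-3 fell and gpa-2 did not pass the test. Dauer is the arrested larva formed under crowding pheromone, and activated forms of both subunits favour it. The counts of gpa-3, which is expressed in many amphid and phasmid neurons, were 2788, 3459 and 3452 in controls and 1138, 1452 and 1275 in mutants. The highest mutant library was thus far under the lowest control. The difference was −1.33 with an SE of 0.17 and a Benjamini-Hochberg adjusted limma p of 0.00118. For gpa-2, known from AWC and several other neurons, controls were at 1084, 1023 and 1048 and mutants at 743, 827 and 745. The groups did not overlap, yet the difference of −0.45 (SE 0.15) missed the threshold with a limma Benjamini-Hochberg adjusted p of 0.0677, and its 95% interval ran from −0.79 to −0.11. Under equal totals the gpa-2 difference was −0.27, and its adjusted p ranged from 0.0509 to 0.247 over all alternatives.

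Subunits of the nociceptive and phasmid neurons included the largest difference of the set. The gene gpa-15, expressed in ADL, ASH, ASK and the phasmid neurons and also in non-neuronal cells of the developing gonad, stood at 591, 707 and 869.8 normalized counts in controls. In mutants it stood at 193, 296 and 229. This was 33.1% of the control mean, a log2 difference of −1.59 with an SE of 0.22 and a Benjamini-Hochberg adjusted limma p of 0.00178. The gene gpa-11 acts in ADL and ASH in the food- and serotonin-dependent avoidance of octanol. Its counts were 1983, 3039 and 2205 in controls and 803, 1199 and 791 in mutants. Replicate 2 was the highest library of gpa-11 in both groups, and no mutant library reached a control. The difference was −1.37 with an SE of 0.22 and a Benjamini-Hochberg adjusted limma p of 0.00372.

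Another member with groups far apart was gpa-1, a subunit of several amphid and phasmid neurons that takes part in the response to salt. Controls were at 1015, 1204 and 947 normalized counts and mutants at 379, 520.2 and 364. The mean went from 1055 ± 133 to 421 ± 86.2 (SD, n = 3 per group), which gave a log2 difference of −1.34 with an SE of 0.19 and a Benjamini-Hochberg adjusted limma p of 0.00225. In the annotation used here 251 of its 1326 exonic bases overlap T19C4.5 on the other strand. That gene went from 852 ± 159 to 622 ± 128 (SD, 3 libraries per group), with a difference of −0.46 and a limma Benjamini-Hochberg adjusted p of 0.165, and without stated strand use its reads and those of gpa-1 cannot be told apart where they overlap.

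Calls on gpa-6 and gpa-13 depended on the setting. The X-linked gene gpa-6 is expressed in amphid neurons, AWA and AWB among them. Its counts were 430.1, 474 and 474 in controls and 262, 289 and 352 in mutants, with no overlap. The difference of −0.62 (SE 0.18) passed with a limma Benjamini-Hochberg adjusted p of 0.0436, but with any 1 of the 6 libraries left out it did not (adjusted p 0.0625 to 0.125), nor with edgeR on recovered reads (adjusted p 0.0643). For gpa-13, which modulates olfaction in AWC and is also expressed in ADF, ASH and phasmid neurons, controls were at 208, 295 and 197 and mutants at 77.1, 152 and 154. Mutant replicate 1 lay well under its group. The difference of −0.91 (SE 0.30) gave a limma Benjamini-Hochberg adjusted p of 0.0651, which became 0.0273 with the replicate number as a block and 0.0429 without mutant replicate 2. Without mutant replicate 1 the gpa-13 difference was −0.58, and over all alternatives its adjusted p ranged from 0.0273 to 0.206.

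The 2 genes with overlapping groups were the lowest of the set per length in the controls. Without division by length, the control mean of gpa-9 (262 normalized counts) was above that of gpa-13 (233). The gene gpa-5 encodes an AWA subunit that counteracts ODR-3 signalling. It stood at 54.4, 42.8 and 47.6 normalized counts in controls and at 53.1, 46.3 and 43.9 in mutants, from 41 to 57 recovered reads per library. The groups lay on top of each other, with a difference of −0.01 and a 95% interval from −0.64 to 0.62 (limma Benjamini-Hochberg adjusted p 0.980). For gpa-9, reported in ASJ, the phasmid neuron PHB and non-neuronal tissue, controls were at 262, 217 and 307 and mutants at 308, 284 and 332. The difference was 0.24, with a 95% interval from −0.20 to 0.69 (limma Benjamini-Hochberg adjusted p 0.405), so a fall of the size seen for odr-3 lies outside the interval of both genes. The gpa-9 difference was 0.12 without control replicate 2 and 0.42 under equal totals. In the annotation 1160 of the 3153 exonic bases of gpa-9 overlap F56H9.8 on the other strand, a gene at 68.4 ± 8.25 in controls and 45.7 ± 12.7 in mutants (SD, 3 libraries per group), and the part of its reads in the gpa-9 value was not tested.

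**Figure D2:**
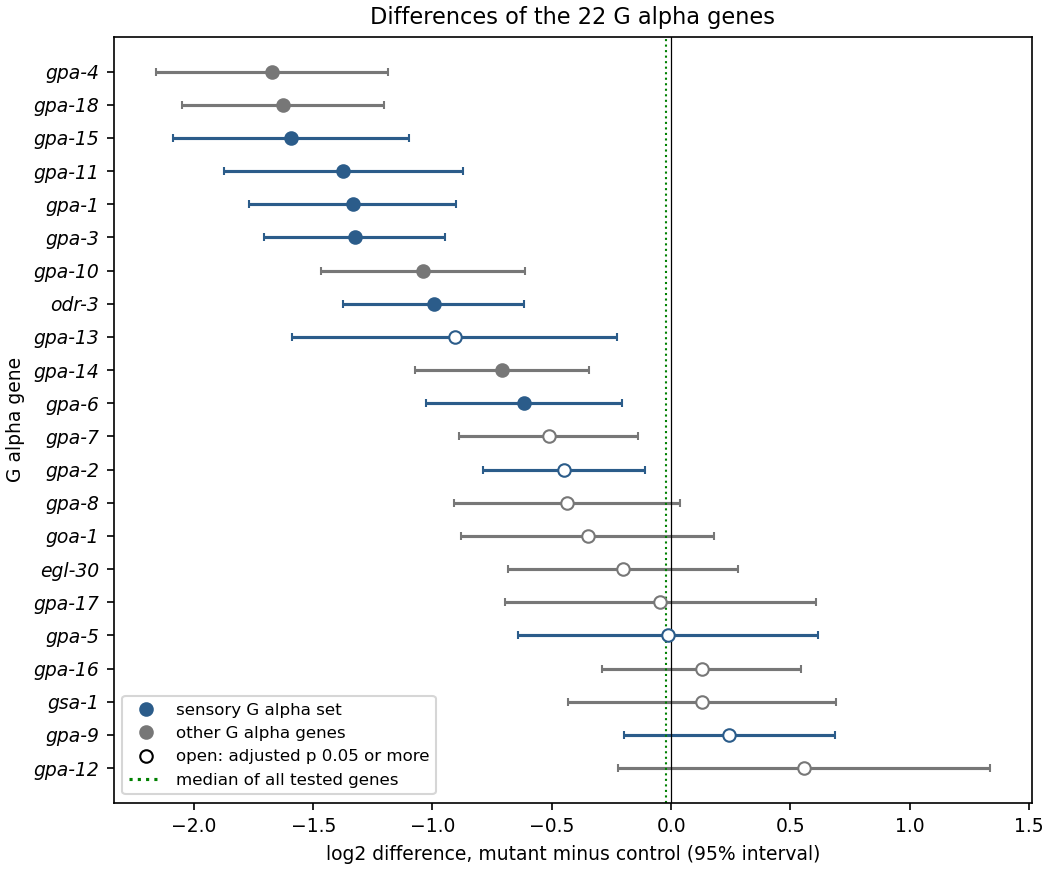
Log2 difference, mutant minus control (horizontal, with limma 95% intervals), of the 10 sensory G alpha genes (blue) and 12 other G alpha genes (grey), sorted (vertical), with filled points past the adjusted threshold. The points run from −1.67 (gpa-4) to 0.56 (gpa-12), and the open points of goa-1, egl-30 and gsa-1 lie at −0.35, −0.20 and 0.13, with intervals that span the dotted median of all genes at −0.02.

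Levels of different members were compared as normalized counts per kb of exon, with exon lengths from the Ensembl annotation, which may differ from the one the authors used. In controls the order was odr-3 (2366 ± 197), gpa-3 (2043 ± 244), gpa-11 (1313 ± 304), gpa-1 (796 ± 100.1), gpa-2 (736 ± 21.2), gpa-15 (582 ± 113), gpa-6 (294 ± 16.1), gpa-13 (165 ± 38.02), gpa-9 (83.1 ± 14.2) and gpa-5 (41.7 ± 5.07), each as mean ± SD over 3 libraries. The library values of odr-3 and gpa-3 overlapped, as did those of gpa-1 and gpa-2, and the other neighbours did not. In mutants gpa-2 stood in the third place at 541 ± 33.6 per kb, above gpa-11 at 507 ± 127, with overlapping libraries. Below them gpa-15 (193 ± 41.9) overlapped gpa-6 (192 ± 29.7), and gpa-9 (97.7 ± 7.50) overlapped gpa-13 (90.4 ± 31.1).

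Summed over the 10 genes, the level per kb was 8420 ± 828 in controls and 3987 ± 539 in mutants (SD, 3 libraries per group). As shares of that sum, odr-3 made up 27.8% to 28.7% in controls and 28.8% to 31.2% in mutants. The share of gpa-2 was 7.77% to 10.03% in controls and 12.7% to 14.9% in mutants, and that of gpa-3 was 23.3% to 25.7% and 20.1% to 20.6%. For gpa-15 the share was 6.18% to 8.26% in controls and 4.46% to 5.23% in mutants. Shares sum to a fixed total, so they depend on each other and were not tested.

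**Figure D3:**
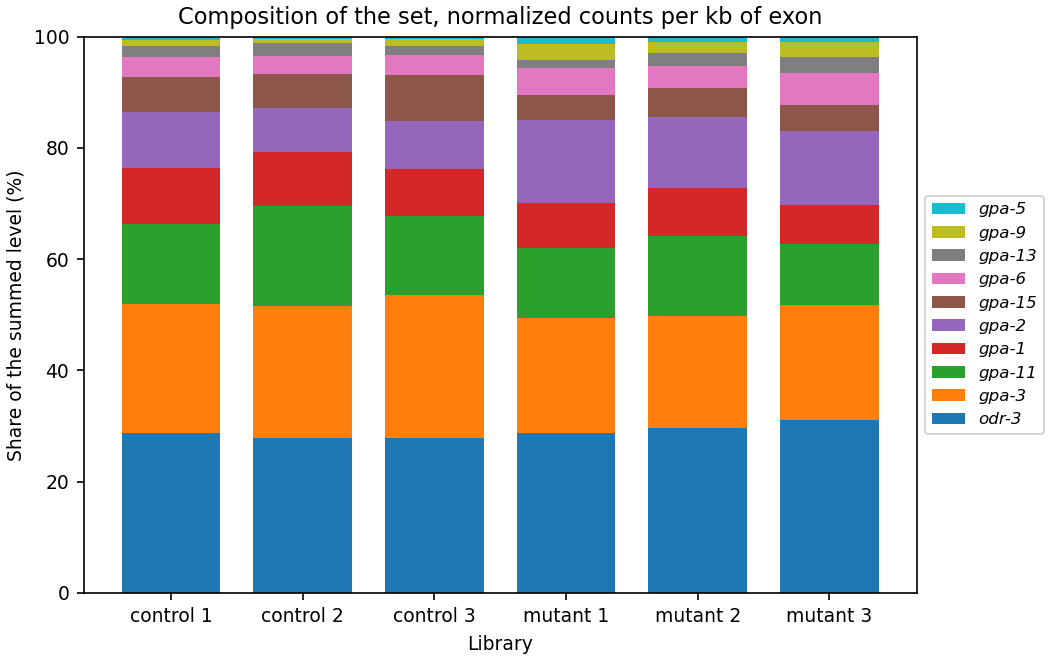
Share of each G alpha gene (vertical, %) in the summed normalized counts per kb of exon of the 10 genes, stacked for each library (horizontal). The purple gpa-2 band is wider in the 3 mutant libraries, at 12.7% to 14.9%, than in the controls, at 7.77% to 10.03%, and odr-3 is the largest band in every library.

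The set was also compared, library by library, with genes shared by all neurons. The mean log2 value of the 10 genes was 9.38, 9.54 and 9.49 in control replicates 1, 2 and 3 and 8.45, 8.79 and 8.64 in the mutants. A pan-neuronal list of 30 genes was at 13.70, 13.34 and 13.45 in the controls and 13.33, 12.60 and 12.94 in the mutants. In both groups the library with the highest mean of the sensory G alpha set, replicate 2, thus had the lowest pan-neuronal mean, and the library with its lowest mean, replicate 1, had the highest. Mutant replicate 2 was the highest mutant library for 6 of the 10 genes and mutant replicate 1 the lowest for 6.

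Of the 12 remaining G alpha genes 4 fell past the threshold (gpa-4, gpa-10, gpa-14 and gpa-18), beside 10.5% of all genes, and 0 rose. The median log2 difference of the 12 was −0.39 (−0.22 under equal totals). Counts of gpa-4, which is expressed in the sensory neuron ASI, went from 397 ± 42.9 to 125 ± 24.6 (SD, n = 3 per group), which gave a log2 difference of −1.67 (limma Benjamini-Hochberg adjusted p 0.00127). The difference was −1.63 for gpa-18, −1.04 for gpa-10 and −0.71 for gpa-14 (limma Benjamini-Hochberg adjusted p 0.000746, 0.00644 and 0.0170), and the call on gpa-14 did not hold when control replicate 1 or 2 or mutant replicate 3 was left out. None of the genes for the widely expressed subunits passed the test. Their differences were −0.35 (95% interval −0.88 to 0.18) for goa-1, the Go subunit, −0.20 (−0.68 to 0.28) for egl-30, the Gq subunit, and 0.13 (−0.43 to 0.69) for gsa-1, the Gs subunit. For gpa-7, which is expressed in many neurons and in muscle, the difference was −0.51, with a limma Benjamini-Hochberg adjusted p of 0.0603 that became 0.0197 with the replicate block. Whether the falls of the sensory genes differ from those of goa-1, egl-30 and gsa-1 was not tested.

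Some partners of the alpha subunits were lower too. Of 17 tested genes for beta and gamma subunits, RGS proteins, arrestin and other regulators, 5 fell, 0 rose, and the median difference was −0.50 (−0.32 under equal totals and −0.33 without mutant replicate 2). The smallest adjusted p was that of rgs-3, an RGS protein of sensory neurons that shortens alpha subunit signalling, with a control mean of 3029 ± 26.7 normalized counts and a mutant mean of 1135 ± 162 (SD, n = 3 per group), which gave a log2 difference of −1.43 (limma Benjamini-Hochberg adjusted p 0.000714). The sensory gamma subunit gene gpc-1 went from 526 ± 189 to 165 ± 66.1 (SD, n = 3 per group), which gave a log2 difference of −1.69 (limma Benjamini-Hochberg adjusted p 0.0128). Differences were −0.79 for the arrestin gene arr-1 and −1.05 for egl-10, whose RGS product acts on GOA-1 (limma Benjamini-Hochberg adjusted p 0.0128 and 0.0189). Of these calls, rgs-3 held with each library left out, gpc-1 was lost without control replicate 1 or 3, arr-1 without control replicate 2 or 3 or mutant replicate 3, and egl-10 without any 1 control or mutant replicate 3. The count of 5 became 10 with the replicate block, 9 without mutant replicate 1, 2 without mutant replicate 3, and 2, 3 and 1 without control replicates 1, 2 and 3. It was 3 without a variance trend and 8 with DESeq2. As reported, 10.5% of all genes were called lower. In those settings the share ran from 4.83% (without control replicate 2) to 15.2% (replicate block).

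Of 27 sensory transduction genes downstream of or beside the G proteins, 12 fell and 0 rose, with a median difference of −0.60 (−0.42 under equal totals). The cyclic nucleotide-gated channel subunit genes che-6 and tax-2 differed by −1.67 and −0.84, and the guanylyl cyclase gene odr-1 by −1.02 (limma Benjamini-Hochberg adjusted p 0.00113, 0.0107 and 0.0080). The gene osm-10, needed in ASH for avoidance of high osmolarity, differed by −0.87 (limma Benjamini-Hochberg adjusted p 0.0079). The call on tax-2 was lost without control replicate 2 or mutant replicate 3. The count of 12 was 7 and 3 without control replicates 1 and 2, 5 without mutant replicate 3 and 6 without a variance trend. The share of all genes called lower was 10.5% as reported and 5.32%, 4.83%, 5.57% and 7.25% in those settings. The count was 8 under equal totals, with median centring and with no filter, beside 7.54%, 8.6% and 5.04% of all genes. With the replicate block it was 16, beside 15.2%.

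Among 13 receptor genes of sensory neurons 10 were tested, of which 4 fell, beside 10.5% of all genes, and 0 rose, with a median of −0.42. That median was −0.77 and −0.86 without mutant replicates 1 and 3, −0.25 under equal totals, −0.70 with no filter and −0.98 with a minimum mean of 50, and 1 receptor gene was called higher without mutant replicate 1 or without a variance trend. The diacetyl receptor gene odr-10, whose product signals through ODR-3 in AWA, went from 3076 ± 578 to 1080 ± 188 normalized counts (SD, n = 3 per group), which gave a log2 difference of −1.51 (limma Benjamini-Hochberg adjusted p 0.00134). The dauer pheromone receptor gene srbc-66 differed by −2.56, from 167 ± 51.6 to 27.3 ± 9.44 (SD, 3 libraries per group, limma Benjamini-Hochberg adjusted p 0.00159). The ascaroside receptor genes daf-38 and daf-37 differed by −0.99 and −0.98 (limma Benjamini-Hochberg adjusted p 0.0113 and 0.0299). Without control replicate 2 the count of 4 was 2, since neither daf-38 nor daf-37 was then called, and daf-37 was also lost without control replicate 1, mutant replicate 2 or mutant replicate 3.

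Some regulators and ciliary genes of sensory neurons fell too. Of 27 transcription factor genes of sensory neurons 9 fell and 0 rose, with a median of −0.63 (−0.45 under equal totals). They were led by fkh-8, a forkhead factor of ciliated neurons, with −1.97 (limma Benjamini-Hochberg adjusted p 0.000234), and the OTX homeobox genes ttx-1, ceh-36 and ceh-37, with −0.96, −1.27 and −0.74 (adjusted p 0.0105, 0.0163 and 0.0186). Calls on ceh-36 were lost without control replicate 1 or 2, and those on ceh-37 without control replicate 2 or 3 or mutant replicate 3. The count of 9 was 16 with the replicate block, 14 without mutant replicate 1, 4 without mutant replicate 3, 3, 2 and 3 without control replicates 1, 2 and 3, 5 without a variance trend and 4 under equal totals. The share of all genes called lower ran from 4.83% (without control replicate 2) to 15.2% (replicate block) in those settings, beside 10.5% as reported. Of 40 ciliary genes 18 fell and 1 rose, with a median of −0.56 (−0.39 under equal totals). The kinesin-II subunit gene kap-1 differed by −2.53 (limma Benjamini-Hochberg adjusted p 0.000237), and dyf-6, nphp-4 and bbs-1, genes of ciliary transport, the transition zone and the BBSome, by −0.85, −1.07 and −1.10 (adjusted p 0.00673, 0.00688 and 0.00775). The gene that rose was che-10, for the rootlet protein of the cilium, at 0.84 (limma Benjamini-Hochberg adjusted p 0.0180), a call lost without control replicate 2 or 3. The 18 became 4, 7, 4 and 9 without mutant replicate 3 and control replicates 1, 2 and 3, 8 without a variance trend, and 11 and 10 with median centring and equal totals. In these settings the share of all genes called lower ran from 4.83% (without control replicate 2) to 8.6% (median centring).

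Markers of single sensory neuron classes had a median difference of −1.39. Of 16 tested 10 fell, beside 10.5% of all genes, and 0 rose, beside 7.56%. These values include 2 ASK markers that are set aside below. A minimum mean of 50 left both ASK markers out. Then 7 of 11 tested markers fell, beside 13.7% of all genes, and the median was −0.91. The mean log2 value of the 16 markers, those of ASK included, was 7.71 to 8.02 in controls and 6.21 to 6.40 in mutants. For the ASI marker daf-7, a TGF-beta ligand gene, counts went from 5540 ± 998 to 635 ± 63.5 (SD, n = 3 per group), which gave a log2 difference of −3.11 (limma Benjamini-Hochberg adjusted p 5.41e-05). The ASJ markers ssu-1 and trx-1 differed by −2.31 and −2.70 (limma Benjamini-Hochberg adjusted p 0.000959 and 0.00428). The ASK markers sra-7 and sra-9 reached the minimum for testing only through the controls, at 76.9 ± 58.5 and 35.04 ± 15.02 normalized counts, and stood near the floor of 3 reads in mutants, at 3.44 ± 2.44 and 4.59 ± 3.62 (SD, 3 libraries per group), so their calls carry no weight in the count. The classes differed in size of change, which was not tested between them. The ASH markers had a median of −0.71 with 2 of 3 called, and the ADF markers a median of −0.12 with 0 of 2 called. The 2 ADF markers went opposite ways, at −0.56 and 0.31. Without mutant replicate 1 both were lower, 1 of them was called and their median was −0.51. The medians were −1.21 for AWA and −1.86 for AWC, with 1 of 2 and 2 of 2 called, and the second ASI marker was not called. Without control replicate 1 or 2, 0 AWC markers were called. The lists share genes, since odr-10, ceh-36 and osm-10, named above in other lists, are also the AWA, AWC and ASH markers here in part. The 1 tested ADL marker, at 0 in mutant replicate 2, was not called either. The count of 10 was 6 without control replicate 2, beside 4.83% of all genes. The part of these markers in the G alpha differences was not tested.

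**Figure D4:**
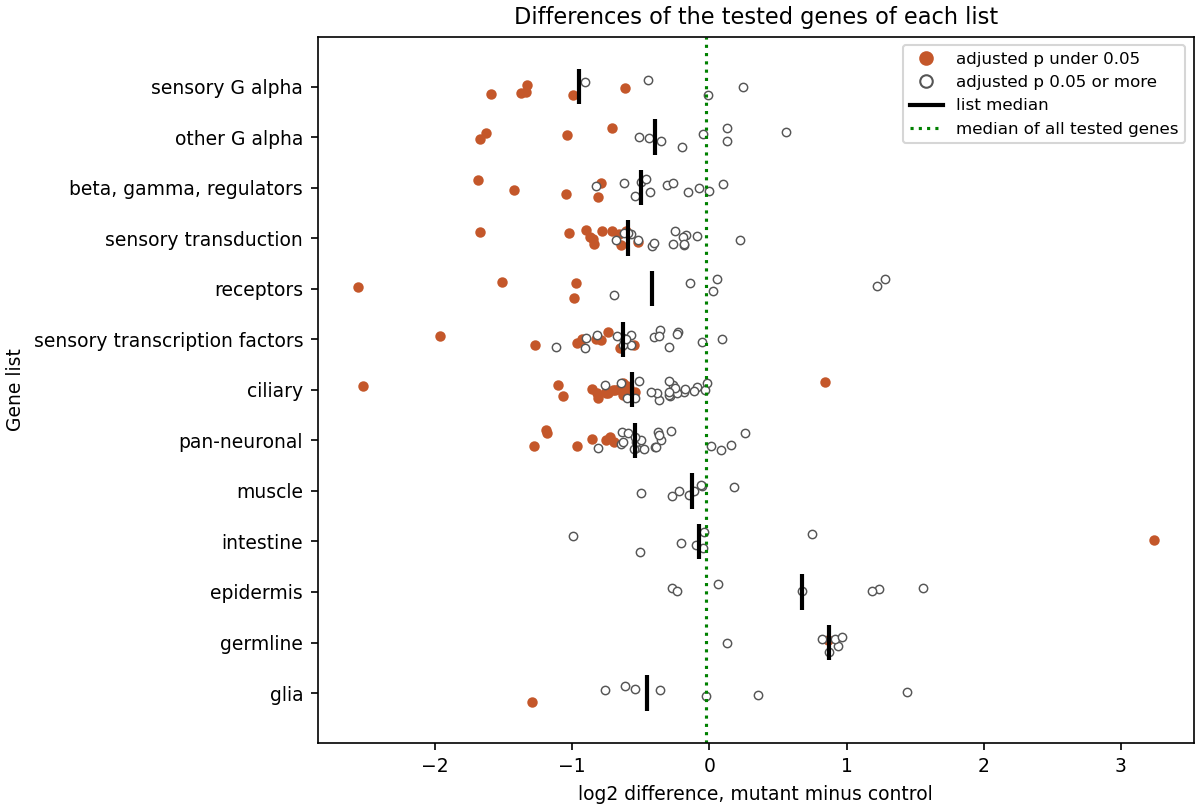
Log2 difference, mutant minus control (horizontal), of every tested gene of 13 gene lists (vertical), filled where the adjusted p is under 0.05, with each list's median as a black bar and the median of all genes as a dotted line. The medians of the upper 8 lists, which include widely expressed G protein genes, lie between −0.95 and −0.39, as does that of glia at −0.45. Those of muscle and intestine lie near the dotted line, and those of epidermis and germline above it.

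Pan-neuronal genes and markers of other tissues were examined beside the set. Of 30 pan-neuronal genes 8 fell and 0 rose, with a median of −0.54 (−0.36 under equal totals). The count was 17 with the replicate block and 18, 4 and 1 without mutant replicates 1, 2 and 3. Without control replicates 1, 2 and 3 it was 0, 1 and 0. It was 4 with median centring and 1 without a variance trend. The share of all genes called lower was 10.5% as reported. In those settings it ran from 4.83% (without control replicate 2) to 15.2% (replicate block). Of 8 muscle markers 0 were called, with a median of −0.13 (0.05 under equal totals) and summed normalized counts of 129427 to 142137 in controls and 125330 to 160609 in mutants. Germline markers had a median of 0.87, with 1 of 7 tested called higher, beside 7.56% of all genes. That gene was xnd-1 (0.86, limma Benjamini-Hochberg adjusted p 0.0492, lost with any 1 library left out). Sums of the germline markers were 645 to 689 in controls and 834 to 1206 in mutants. All 7 had a positive difference. For 6 of them each mutant library lay above each control, beside 19.5% of all genes. Epidermal markers had a median of 0.67 (−0.09 with a minimum mean of 50) with 0 of 7 called, and intestinal markers −0.07 (0.10 under equal totals) with 1 of 8 called higher. Of 8 glial markers 1 was called lower, with a median of −0.45 (−0.28 under equal totals). With the replicate block the counts were 3 glial markers lower and 1 epidermal, 2 germline and 2 intestinal markers higher. In that setting 15.2% of all genes were called lower and 11.1% higher. Medians with 1 library left out ran from 0.21 to 1.09 for epidermis, −0.20 to 0.05 for intestine and −0.20 to −0.04 for muscle, of which 1 marker was called lower without control replicate 2. Sums of the epidermal, intestinal and glial markers ran from 1467 to 2565, 23421 to 32605 and 9708 to 13166 in controls and from 1822 to 3792, 19085 to 33373 and 5629 to 6549 in mutants. No marker of these 5 tissues was at 0 in any library, and the part of any of these tissues in the G alpha differences was not tested.

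Position was described as well. By the Ensembl annotation 6 of the 10 genes lie on chromosome V, 2 on X (gpa-5 and gpa-6), 1 on I (gpa-15) and 1 on II (gpa-11). The median difference of the 3663 tested genes on V was −0.07, of which 486 (13.3%) were called lower, beside 10.5% of all tested genes. On X it was −0.27 over 2651 genes, 379 (14.3%) of them called lower. The differences of gpa-6 and gpa-5 were −0.62 and −0.01.

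Most of the calls held wherever they were tested. The genes odr-3, gpa-1, gpa-3, gpa-11 and gpa-15 were lower past the threshold in all 16 alternatives, which included edgeR and DESeq2 on recovered reads, other scalings and leaving out each library. Their highest adjusted p values over these were 0.0291, 0.0168, 0.0125, 0.0237 and 0.0134. With the replicate block 7 of the 10 genes were called lower, beside 15.2% of all genes. The count was 6 with a pseudocount of 0.5 or 5 (10.4% and 10.9% of all genes), with a minimum mean of 50 (13.7%) and with DESeq2 (12.4%). It was 5 with no filter (5.04%), equal totals (7.54%), median centring (8.6%), no variance trend (7.25%) and edgeR (9.65%). Without control replicates 1, 2 and 3 it was 5 each time, beside 5.32%, 4.83% and 5.62% of all genes. Without mutant replicates 1, 2 and 3 it was 5, 6 and 5, beside 14%, 10.2% and 5.57%.

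**Figure D5:**
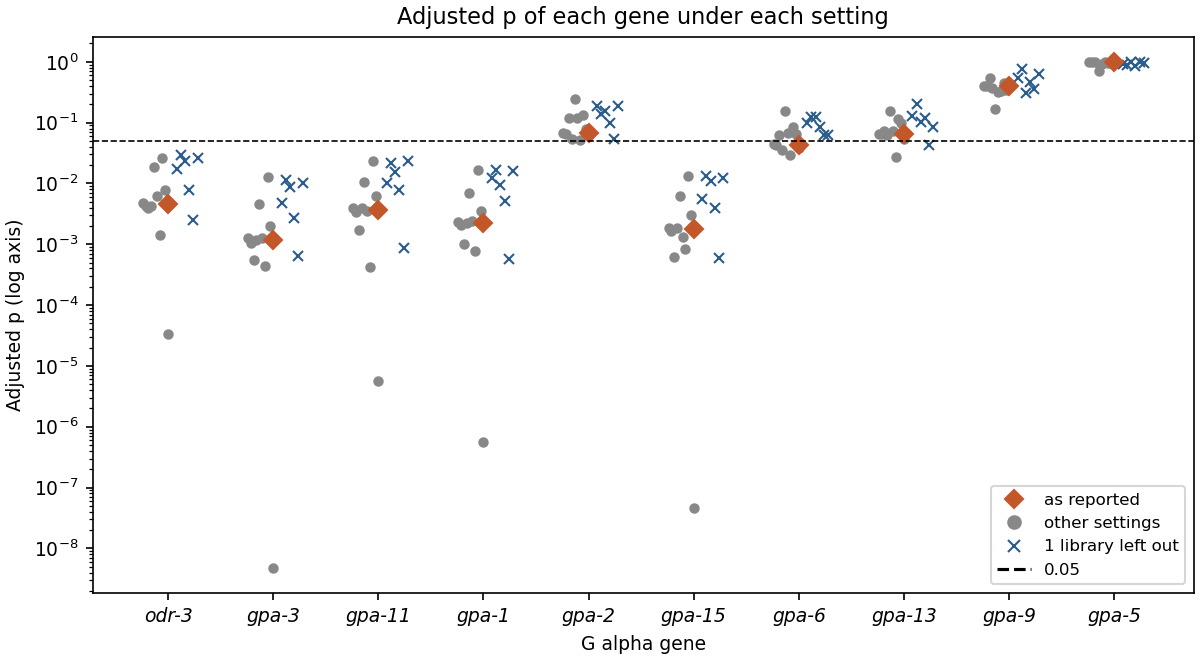
Benjamini-Hochberg adjusted p (vertical, log axis) of each G alpha gene (horizontal) as reported (diamonds), under the 10 other settings (circles) and with 1 library left out (crosses), with 0.05 dashed. The 5 genes odr-3, gpa-3, gpa-11, gpa-1 and gpa-15 lie under the line throughout, gpa-6 and gpa-13 on both sides, and gpa-2, gpa-9 and gpa-5 above it.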

How the data were processed

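The deposited table holds a normalized signal, that is, gene counts that the authors divided by 1 size factor per library, per the table's name; the submitters' processing notes name STAR, featureCounts and DESeq2. Versions, build, annotation, strand use and the treatment of shared reads are not given in the sources used here, so closely related genes and genes overlapping others are uncertain. Every value was a whole multiple of the worth of 1 read (100% within 0.01 reads), which gave whole reads. The floor of 3 reads is 2.44 to 3.79 normalized counts and covers counting error only.

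The test was limma 3.58.1 (R 4.3.3) on log2(normalized count + 1), which understates changes of low genes, with group as the only term, a mean-variance trend and two-sided p-values adjusted by Benjamini-Hochberg across 17900 genes whose mean reached 10. A call needs an adjusted p under 0.05. Alternatives included edgeR 4.0.16 and DESeq2 1.42.0 on recovered reads, and the scripts were tested on simulated data. With the replicate block, the pairing came from the numbers in the titles. After each gene was centred within its group, control and mutant libraries sharing a number correlated at 0.25, 0.20 and 0.15 across genes. The other pairs ran from −0.20 to 0.00493. Centred values cancel out within a group, so positive correlations for shared numbers push those of the other pairs down. The contrast is therefore partly built in, and whether shared numbers mark true pairs was not tested. Exon lengths, chromosomes and overlaps came from Ensembl release 115 (assembly WBcel235), in which 96.0% of the table's symbols matched. No sequences were used here. Members and lists were chosen with earlier results of these data known. All 10 members are named, with up to 4 genes per list by smallest adjusted p, each neuron class being a list, and any G alpha gene. The gene che-10 falls outside this rule and was chosen after its values were seen.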

Additional observations from a re-analysis of the deposited data

How the results depend on the processing

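The number of genes of the set called lower was 6 as reported, 7 with the replicate block, and between 5 and 7 in all 16 alternatives. The median difference of the set was −0.78 under scaling to equal totals, which moved the median of all genes to 0.16, and −1.08 to −0.73 with 1 library left out. The call on gpa-6 was lost in 11 of 16 alternatives and that on gpa-13 gained in 2, and the cause was not tested. The replicate block changed no other call of the 10 genes. Directions of 9 genes held throughout. That of gpa-5 turned, at 0.16 under equal totals, 0.047 with median centring, 0.022 with edgeR, 0.0071 with DESeq2 and −0.094 to 0.077 with 1 library left out. With a minimum mean of 50, gpa-5 was not tested. Its 41 to 57 reads per library limit what could be detected.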
